A study of Mus musculus with 6 samples.

Results

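Serpins and WAP-domain antiproteases, the gene families that encode most of the endogenous inhibitors of serine proteases, were followed through 6 RNA-seq libraries of sorted pubertal mouse mammary cells. Members were all gene symbols made of Serpin, a clade letter from a to i and a number, or of Wfdc and a number, together with Slpi, that had at least 10 counts in any library. This gave 52 members of 83 such symbols, among 55291 gene symbols in the count tables. Serpins were grouped by clade letter: 17 members in clade A, 18 in clade B, 3 in clade E, 2 in clade F, and 1 each in clades C, D, G, H and I. The remaining 7 were WAP-domain genes, Slpi included. Another 27 symbols, among them Serpinb1c, were at 0 in all 6 libraries, and 4 had counts below the minimum in all of them (Serpina1c, Serpinb10, Serpinb13 and Wfdc15b).

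The study compared cells sorted as positive for Gpr125 (Adgra3) with cells sorted as negative, and Gpr125+ cells from the distal part of the gland, where ducts end in terminal end buds (TEBs), with those from the part near the nipple, the lymph node marking the border. There were 2 libraries of Gpr125-negative cells, 2 of TEB-distal Gpr125+ cells and 2 of nipple-proximal Gpr125+ cells. All mice were Adgra3-lz/+, the controls included, so each cell had an Adgra3 allele in which lacZ replaces part of the gene. All were labelled as 6 weeks old, and both abdominal glands of 5 mice were pooled for a sample. Cells with CD31, CD45 or Ter119 on their surface were excluded, and the study's methods also list an antibody to CD140a (Pdgfra), a fibroblast surface marker, in the same staining. Cells with high CD49f were sorted on β-galactosidase activity read with the substrate FDG. The positive gate therefore follows activity of the Adgra3 locus, and each library averages a pool of mice. Nothing else sets the 2 samples of a group apart as separate experiments, so p-values measure the spread between these samples only. The sample records give no region for the Gpr125-negative libraries, which served as the reference of both Gpr125+ populations, so the 2 comparisons with them share their controls.

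Serpins inhibit proteases by a suicide mechanism in which the protease cuts an exposed loop and is trapped in a covalent complex. Clade A serpins are mostly secreted, clade B serpins (ov-serpins) act mainly inside cells, and clade E and F serpins include the regulators of plasminogen activation and plasmin. WAP-domain proteins are small secreted inhibitors that block the active site reversibly, and Slpi is the inhibitor of neutrophil elastase and cathepsin G found in most mucosal secretions. In the mammary gland, matrix is remodelled by proteases during ductal growth and involution, and members of both families are expressed there.

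Total counts were between 20134890 and 37296640 per library, so that 3 counts, the smallest level taken as measurable, correspond to 0.0804 to 0.149 CPM of the library total. Levels elsewhere are CPM (counts scaled to library size) after TMM normalisation. That limit and the intervals below cover counting error only, because the libraries hold no molecular identifiers. The replicates stood apart: the correlation of log2 CPM was 0.733 (Gpr125-negative), 0.791 (TEB-distal) and 0.933 (nipple-proximal) between the libraries of a group. Between libraries of different groups it ranged from 0.752 to 0.867. The Gpr125-negative pair was thus the least alike of all pairs. The TEB-distal pair was less alike than any pair of a TEB-distal and a nipple-proximal library (0.844 to 0.855). Adgra3 itself counted 1658 and 550 (Gpr125-negative), 385 and 142 (TEB-distal) and 391 and 262 (nipple-proximal), and was thus not lower in the libraries labelled negative. Basal markers (Krt5, Krt14, Trp63, Acta2 and 6 others) were detected in all libraries, with a summed level of 3383 to 22190 CPM, and luminal markers reached 1445 to 2938 CPM. Although CD31+ cells were gated out, 12 endothelial markers summed to 906.7 and 762.2 CPM (Gpr125-negative), 21.48 and 18.32 (TEB-distal) and 158.5 and 25.85 (nipple-proximal). Fabp4, an adipocyte marker that capillary endothelium also expresses, had 672.1 and 631.0 CPM in the Gpr125-negative libraries and at most 23.5 in the others, while Adipoq was near 0 throughout. In bulk samples like these, fewer cells of a type and less RNA per cell cannot be told apart.

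The members together took between 0.345% (TEB-distal library 1) and 2.07% (Gpr125-negative library 1) of all counts, and Slpi accounted for most of this range. Slpi took 1.93% and 0.462% of the counts (Gpr125-negative), 0.134% and 0.348% (TEB-distal) and 1.36% and 0.794% (nipple-proximal). The 95% exact binomial interval of these shares extended at most 0.0051 percentage points to either side. Its rank among all genes was 2 and 17 (Gpr125-negative), 78 and 24 (TEB-distal) and 4 and 7 (nipple-proximal). Without Slpi, the members took between 0.136% and 0.257% of the counts in every library.

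**Figure D1:**
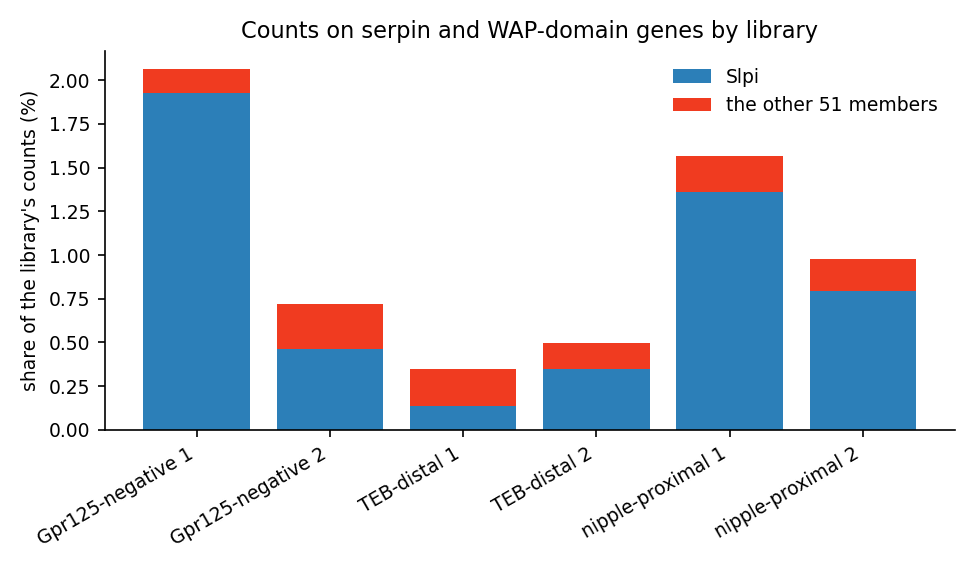
Share of each library's counts (%) on the member genes, with Slpi in blue and all other members in red, for the 2 libraries of each group. The blue segment varies from 0.134% to 1.93%, whereas the red segment stays between 0.136% and 0.257%.

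Compared per kilobase of merged exon, which allows levels of different genes to be set side by side, Slpi had a mean of 6824 CPM per kb. Serpinb5 (maspin, a clade B serpin of epithelial cells with no inhibitory activity toward proteases) followed with 187, and Serpinh1, the collagen chaperone of the endoplasmic reticulum, with 176. Next came Serpinb6a with 65.6, Serpina3n with 56.0, Serpinb9 with 32.5 and Serpina3h with 27.4 CPM per kb. On this scale a single secreted WAP inhibitor stood far above the collagen chaperone and the clade B and clade A serpins.

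Of the 52 members, 18 had at least 10 counts in all 6 libraries and 12 had them in a single library. Only TEB-distal libraries reached 10 counts for 7 members (Serpina3c, Serpina3j, Serpinb6e, Serpinb9d, Serpinb9f, Serpinb9g and Serpine3), and only nipple-proximal libraries for another 7 (Serpina1a, Serpina1b, Serpina1d, Serpina1e, Serpina5, Serpinb12 and Serpinb1a). Serpina3k, Serpind1 and Wfdc5 reached them in Gpr125-negative libraries only. All 12 members with such counts in a single library are among the genes just named. A gene that reached 10 counts in 1 group only became a member through that group. The shares of all genes with these patterns were not computed, so the counts given here are descriptions. Members at 0 in both libraries of a group numbered 14 (Gpr125-negative), 8 (TEB-distal) and 5 (nipple-proximal). Most of these members lie in tandem arrays, in which 44 of the 52 have another member as a neighbour: 17 clade A genes on chromosome 12 (103728156 to 104414329, GRCm38), 13 clade B genes on chromosome 13 (32842092 to 34002794), 5 clade B genes on chromosome 1 (106861173 to 107610484) and 5 WAP-domain genes on chromosome 2 (164176327 to 164745931). Serpinf1 and Serpinf2 adjoin on chromosome 11, as do Wfdc17 and Wfdc18. The chromosome 13 array holds both a gene that reached 10 counts in nipple-proximal libraries only (Serpinb1a) and genes that did so in TEB-distal libraries only (Serpinb6e, Serpinb9d, Serpinb9f and Serpinb9g), whereas the 4 Serpina1 members of the chromosome 12 array reached them in nipple-proximal libraries only.

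**Figure D2:**
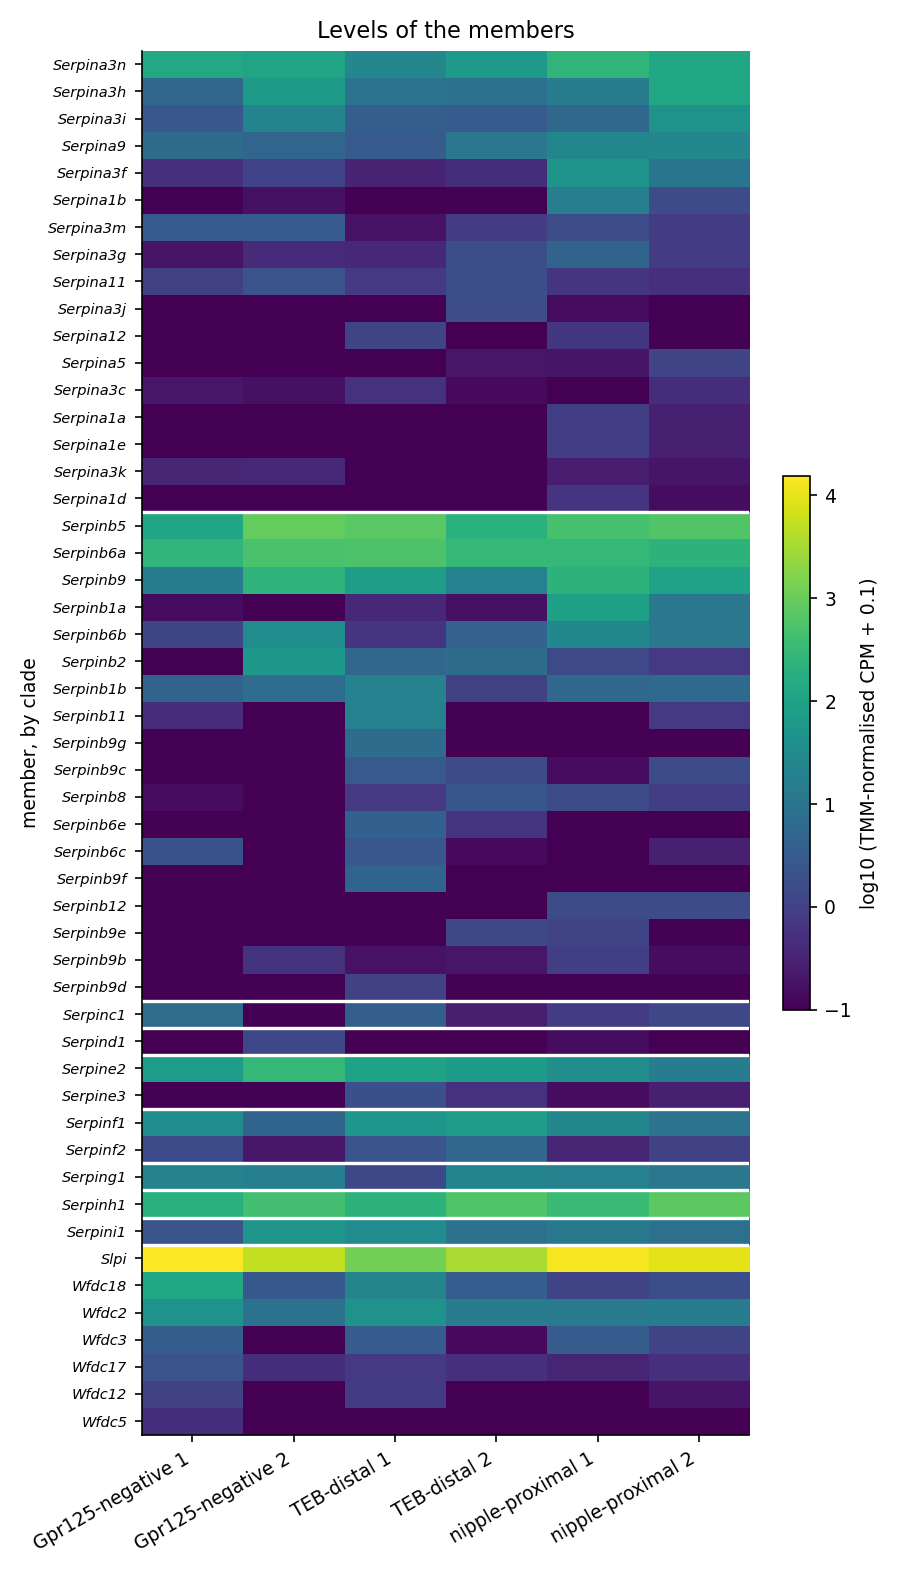
Level of the members in each of the 6 libraries, as log10 of TMM-normalised CPM with 0.1 added, ordered by clade and then by mean level, with white lines between clades. Slpi is the brightest row, and dark cells mark libraries without counts, such as those of Serpinb12 outside the nipple-proximal and Serpinb6e outside the TEB-distal libraries.

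Differences were tested with edgeR (quasi-likelihood test, all 3 groups fitted together) on 17268 genes of which 40 were members. The threshold for a call was an adjusted p (Benjamini-Hochberg) under 0.1 together with at least 2-fold change. By this rule, 0% of all genes and none of the 40 members were called in any comparison, and the adjusted p-values of the members lay between 0.803 and 1. An unadjusted p under 0.05 was found for 4 members in TEB-distal against Gpr125-negative cells (10% of those tested, against 6.05% of all genes), for 8 in nipple-proximal against Gpr125-negative cells (20% against 3.55%) and for 6 in TEB-distal against nipple-proximal cells (15% against 2.21%). Several of these passed the filter only through the group in which they are high, so these shares are descriptions and not support for a difference of the family. Leaving out 1 library at a time gave 0 to 1, 0 to 3 and 0 to 1 called members in the 3 comparisons. Such a fit lets more genes through the filter and leaves a group with 1 library, which is assumed to vary like the other groups. Without Gpr125-negative library 1, Serpinb2, which had 0 counts in that library, was called in the first comparison (beside 3.85% of all genes), and Serpinb1a, Serpinb2 and Serpine2 were called in the second (beside 1.73%). Without nipple-proximal library 2, Serpinb1a was called in the second and the third (beside 0.0195% and 0.0584%).

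Fitted to the 4 compared libraries, with the spread estimated from those alone, edgeR again called 0 genes in each comparison. DESeq2 on the same 4 libraries called more genes. In TEB-distal against Gpr125-negative cells it called 3 members (Serpinb6e, Serpinb9c and Serpinb9g, all higher), and 4.33% of the genes it gave an adjusted p. In nipple-proximal against Gpr125-negative cells it called 5, with Serpina1b, Serpina3f, Serpinb12 and Serpinb1a higher and Wfdc18 lower, and 2% of genes. Between TEB-distal and nipple-proximal cells it called 9 and 2.26% of genes. Of these 9, Slpi, Serpina1b, Serpina3f, Serpina3h, Serpinb12 and Serpinb1a were lower and Serpinb6e, Serpinb9g and Wfdc18 higher in TEB-distal cells. The adjusted p of Serpinb1a was 2.14e-07 against Gpr125-negative cells and 1.07e-09 between the Gpr125+ groups, that of Serpina3f was 0.0031 and 5.57e-08, and that of Slpi was 0.0892 in the latter, all from DESeq2. Serpinb9g was called although its counts came from TEB-distal library 1 alone. DESeq2 also tested more genes than edgeR did, and edgeR with every gene of 1 count or more called Serpinb1a and Wfdc18 in nipple-proximal against Gpr125-negative cells (beside 0.198% of genes), and Serpinb1a and Serpina3f between the Gpr125+ groups (beside 0.133%). Whether a member was called therefore changed with the tool and with the gene filter.

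Groups whose libraries do not overlap were counted beside the tests. Both TEB-distal libraries were above both Gpr125-negative libraries for 7 of 40 members, against 14% of all genes, and below them for 4, against 10%. Both nipple-proximal libraries were above both Gpr125-negative libraries for 9 members, against 19.9% of genes, and below them for 4, against 10.8%. Against the nipple-proximal libraries, both TEB-distal libraries were above for 11 members and below for 12, against 15.2% and 18.3% of genes. The last comparison was the one in which the members' shares, 27.5% and 30%, lay farthest above those of all genes. Here too several members passed the filter only through the group in which they are high, so these shares are descriptions. The median fitted log2 fold change of the 40 members was -0.24, 0.24 and 0.29 in the 3 comparisons, beside 0.03, -0.00 and 0.06 for all genes, and setting genes at 0 in a group to 3 counts in each library did not move these medians. Scaling to library totals in place of TMM moved the median of all genes to -0.23 and 0.21 in the last 2 comparisons, and fold changes are to be read relative to such a shift.

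A two-sided exact permutation of 2 libraries against 2 cannot give a p below 0.333, and the biological coefficient of variation in the edgeR fit was 0.967. Members that had at least 10 counts in both libraries of a group differed between those libraries by a median of 4.13-fold in Gpr125-negative cells (22 members), 2.67-fold in TEB-distal cells (26) and 2.04-fold in nipple-proximal cells (28). All genes with such counts differed by a median of 2.49-fold, 2.04-fold and 1.42-fold.

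**Figure D3:**
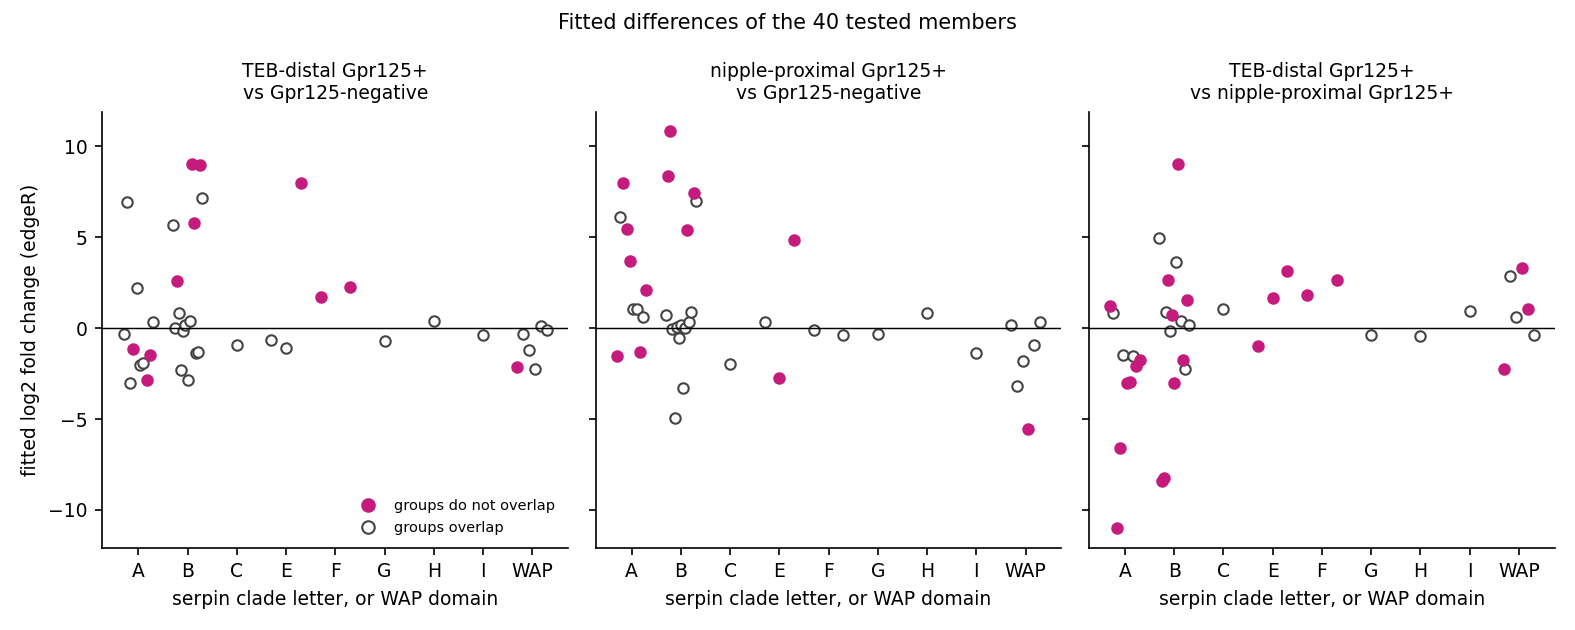
Fitted log2 fold change (edgeR) of the 40 tested members by clade letter or WAP domain, in 1 panel for each comparison. Filled points are members whose groups do not overlap and open points those whose groups do; in the right panel 6 of the 10 clade A genes are filled and below 0. The most extreme points belong to genes at or near 0 counts in a group, whose fitted value depends on the prior count.

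The WAP-domain genes were led by Slpi (chromosome 2, 164354070 to 164389095, minus strand). It had 15528 and 5209.8 CPM (Gpr125-negative), 1273 and 3464 (TEB-distal) and 13431 and 9409.7 (nipple-proximal). Both TEB-distal libraries lay below all 4 others. The level was 4.82-fold lower in TEB-distal than in nipple-proximal cells (log2 fold change -2.27, standard error 0.98, unadjusted p = 0.0501, adjusted p = 1, edgeR's quasi-likelihood test). Against Gpr125-negative cells it was 4.38-fold lower in TEB-distal cells (log2 fold change -2.13, standard error 0.97, adjusted p = 0.843, edgeR). Nipple-proximal and Gpr125-negative libraries overlapped, with a log2 fold change of 0.14 that became -0.16 on library totals. Without Gpr125-negative library 1, the TEB-distal against Gpr125-negative log2 fold change was -1.25, and without TEB-distal library 2 it was -3.03. The study had singled out Slpi and a serpin from these same libraries, so the TEB-distal to nipple-proximal difference is not independent evidence. For Slpi, the paper also drew on published single-cell data of pubertal glands, and reported expression in the cluster it assigned to the nipple-proximal region. Those data were not examined here.

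Wfdc18 (also named Expi), a secreted WAP-domain protein of the mammary gland, had 127 and 2.64 CPM (Gpr125-negative), 23.4 and 3.47 (TEB-distal) and 1.08 and 1.70 (nipple-proximal). Both nipple-proximal libraries were the lowest of the 6. The mean was 46.9-fold lower than in Gpr125-negative cells (log2 fold change -5.55, standard error 1.84, unadjusted p = 0.0175, adjusted p = 1, edgeR). Most of that fold came from Gpr125-negative library 1, since without it the log2 fold change was -1.07. Wfdc2 (HE4), a secreted WAP protein of glandular epithelia, had 46.7 and 9.08, 43.8 and 15.7, and 13.8 and 15.1 CPM in the same order, and the groups overlapped except that both TEB-distal libraries were above both nipple-proximal ones. Among the 4 other members, Wfdc3, Wfdc5, Wfdc12 and Wfdc17, the highest level in any library was 3.36 CPM.

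Clade A, the alpha-1-antitrypsin and antichymotrypsin clade, had 10 of 17 members tested. Their median fitted log2 fold change against Gpr125-negative cells was -1.32 (TEB-distal) and 1.57 (nipple-proximal), and that of TEB-distal against nipple-proximal cells was -1.90. With the gene at 0 in a group set to its bound, the middle value was 1.44 and the others did not move. Against nipple-proximal cells, 8 of the 10 were lower in TEB-distal cells. Groups did not overlap for 6 lower members (Serpina1b, Serpina3f, Serpina3h, Serpina3i, Serpina3n and Serpina9; 60%, against 18.3% of all genes) and for 1 higher member (Serpina11; 10%, against 15.2%).

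Serpina3n, a secreted acute-phase inhibitor of granzyme B and leukocyte elastase, was the most abundant clade A member. It had 135 and 106 CPM (Gpr125-negative), 25.6 and 61.9 (TEB-distal) and 244 and 122 (nipple-proximal). The TEB-distal libraries were the lowest of the 6. Their mean was 4.18-fold lower than that of the nipple-proximal libraries (log2 fold change -2.06, standard error 0.75, unadjusted p = 0.0266, adjusted p = 1, edgeR) and 2.75-fold lower than that of the Gpr125-negative libraries (unadjusted p = 0.0856, adjusted p = 0.872, edgeR).

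Serpina3f, a gene of the same array (chromosome 12, 104214544 to 104221129), had 19 and 29 counts (Gpr125-negative), 6 and 11 (TEB-distal) and 1001 and 219 (nipple-proximal). Each of the 3 groups was separate from the others, with TEB-distal the lowest and nipple-proximal the highest. The nearest TEB-distal and Gpr125-negative libraries had 0.374 and 0.409 CPM, and that difference did not pass the test (log2 fold change -1.17, unadjusted p = 0.353, adjusted p = 1, edgeR). The normalised mean was 42.8-fold higher in nipple-proximal than in Gpr125-negative cells (log2 fold change 5.41, standard error 1.37, unadjusted p = 0.00461, adjusted p = 1, edgeR). It was 97.7-fold lower in TEB-distal than in nipple-proximal cells (log2 fold change -6.59, standard error 1.46, unadjusted p = 0.00214, adjusted p = 1, edgeR). Without nipple-proximal library 1, these log2 fold changes were 3.89 and -5.07. Of the 50-base stretches of its transcripts, 10.6% occur in other genes of the annotation, mainly in other Serpina3 genes, so some of its reads could be shared.

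Serpina3h, annotated as a transcribed pseudogene, and Serpina3i had their highest levels in other libraries than Serpina3f. Serpina3h had 5.19 and 66.5 CPM (Gpr125-negative), 9.40 and 8.37 (TEB-distal) and 15.1 and 131 (nipple-proximal), so that 1 library of each of 2 groups was high. Both nipple-proximal libraries were above both TEB-distal ones (8.22-fold, unadjusted p = 0.0599, adjusted p = 1, edgeR). Serpina3i followed it closely, with 2.15 to 3.02 counts of Serpina3h for each count of Serpina3i in all 6 libraries. Reads that fit both genes were possible, since 21.9% of the 50-base stretches of Serpina3h and 15.9% of those of Serpina3i occur elsewhere. Serpina3g, an intracellular inhibitor of cysteine cathepsins, had 0.0861 and 0.339, 0.273 and 1.70, and 4.71 and 0.753 CPM, and both nipple-proximal libraries were above both Gpr125-negative ones (12.9-fold, unadjusted p = 0.116, adjusted p = 1, edgeR).

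Promoters of Serpina3f, Serpina3g and Serpina3i are shown because these genes lie close together in the array and yet did not all share a pattern. Serpina3f and Serpina3g were highest in nipple-proximal library 1, and Serpina3i in nipple-proximal library 2. The stretches run from 250 bases before to 50 bases after the start site (RefSeq, GRCm38.p6), for Serpina3f at chr12:104214294-104214593, plus strand, for Serpina3g at chr12:104235897-104236196, plus strand, and for Serpina3i at chr12:104262872-104263171, plus strand. Capitals mark the letters TTCNNNGAA, which STAT factors can bind and which were searched on both strands.
Serpina3f: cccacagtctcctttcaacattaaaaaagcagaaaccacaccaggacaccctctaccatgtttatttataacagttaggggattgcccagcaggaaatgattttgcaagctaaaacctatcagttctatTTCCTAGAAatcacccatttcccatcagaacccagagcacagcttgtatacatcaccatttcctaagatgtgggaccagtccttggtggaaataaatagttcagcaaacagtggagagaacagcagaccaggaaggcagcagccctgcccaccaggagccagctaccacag
Serpina3g: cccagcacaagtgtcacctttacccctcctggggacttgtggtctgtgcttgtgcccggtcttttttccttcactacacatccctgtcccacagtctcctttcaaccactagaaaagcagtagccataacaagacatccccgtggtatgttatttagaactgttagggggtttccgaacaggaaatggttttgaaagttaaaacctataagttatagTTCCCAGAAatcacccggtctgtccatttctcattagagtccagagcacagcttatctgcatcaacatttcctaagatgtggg
Serpina3i: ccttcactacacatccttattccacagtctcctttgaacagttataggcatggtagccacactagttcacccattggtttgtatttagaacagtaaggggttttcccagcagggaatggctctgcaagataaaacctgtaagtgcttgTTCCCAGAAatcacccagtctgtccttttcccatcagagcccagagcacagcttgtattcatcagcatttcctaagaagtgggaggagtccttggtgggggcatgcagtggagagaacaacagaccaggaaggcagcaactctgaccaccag
The motif began at position -121 in Serpina3f, -33 in Serpina3g and -102 in Serpina3i, counted from the start site. Aligned end to end, the promoters of Serpina3f and Serpina3i were identical in 228 of 336 columns (67.9%). Those of Serpina3f and Serpina3g were identical in 169 of 398 columns (42.5%). Gaps count as columns here, so windows offset from each other, as the motif positions are, get a lower value. These percentages are therefore not the identity of the bases that were paired. A promoter was found for 44 of the 52 members, and 7 of these (15.9%) held the motif, against 8.47% of 27025 promoters of the same length. The letters TGANTCA, bound by AP-1, occurred in 8 (18.2%, against 7.93%), TATAAA in 7 (15.9%, against 14.2%) and CCAAT in 18 (40.9%, against 37.9%). Some of the 44 promoters are similar in sequence, and a match is a description of the letters only. The promoter of Slpi (chr2:164356458-164356757, minus strand) is shown for comparison because Slpi was the most abundant member, and none of the 4 motifs occurred in this window.
Slpi: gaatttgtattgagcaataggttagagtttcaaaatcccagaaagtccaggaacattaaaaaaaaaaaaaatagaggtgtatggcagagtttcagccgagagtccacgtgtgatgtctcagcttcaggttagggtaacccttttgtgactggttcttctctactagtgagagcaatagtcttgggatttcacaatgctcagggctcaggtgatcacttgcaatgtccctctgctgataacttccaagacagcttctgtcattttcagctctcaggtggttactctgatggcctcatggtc

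Serpina1b, an alpha-1-antitrypsin gene otherwise typical of liver, had 0 and 2 counts (Gpr125-negative), 0 and 0 (TEB-distal) and 329 and 32 (nipple-proximal). It was at least 80.6-fold lower in TEB-distal than in nipple-proximal cells, taking 3 counts in each TEB-distal library (unadjusted p = 0.0116, adjusted p = 1, edgeR). Its ratio of nipple-proximal to Gpr125-negative counts, scaled for depth, was 330 (95% counting interval 90.6 to 2730). Serpina1a, Serpina1d and Serpina1e also had counts in nipple-proximal libraries only. Because 29.5% to 57.6% of the 50-base stretches of these 4 genes occur in other genes, their counts are best read together: the sum over Serpina1a to Serpina1e was 0 and 2, 0 and 0, and 381 and 44 counts in the same order.

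Serpina9 (centerin), a serpin known from germinal-centre B cells, had 6.73 and 4.74, 3.04 and 11.4, and 23.5 and 24.8 CPM, with both nipple-proximal libraries above the other 4 (4.21-fold above Gpr125-negative cells, unadjusted p = 0.0786, adjusted p = 1, edgeR). Serpina3m was the reverse, with 134 and 87 counts (Gpr125-negative), 2 and 21 (TEB-distal) and 33 and 15 (nipple-proximal), and both Gpr125-negative libraries were the highest after normalisation (7.35-fold above TEB-distal cells, adjusted p = 1, edgeR). It overlaps Serpina3k and shares 19.1% of its 50-base stretches with other genes. The remaining clade A members, Serpina3c, Serpina3j, Serpina3k, Serpina5, Serpina11 and Serpina12, stayed at or below 2.00 CPM in every library.

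Clade B had 15 of 18 members tested, with median log2 fold changes of 0.36, 0.33 and 0.39 in the 3 comparisons. Non-overlapping groups were found for 4 higher and 0 lower members in TEB-distal against Gpr125-negative cells (26.7% and 0%, against 14% and 10% of all genes). The numbers were the same in nipple-proximal against Gpr125-negative cells (against 19.9% and 10.8%). These higher members (Serpinb1a, Serpinb8, Serpinb9c, and Serpinb6e or Serpinb12) had 0 counts in Gpr125-negative library 2 and at most 2 in library 1. They passed the filter only through a Gpr125+ group and could not have come out lower, so these shares are descriptions. For Serpinb1a, the TEB-distal separation was 7 and 2 counts against 2 and 0, so TEB-distal library 2 was below the 3 counts taken as measurable. The nipple-proximal separation of Serpinb9c likewise included a library with 1 count. In TEB-distal against nipple-proximal cells, groups did not overlap for 4 higher and 4 lower members (26.7% each, against 15.2% and 18.3%). The clade was led by Serpinb5 and Serpinb6a, which were present in all libraries. Serpinb5 had 117 and 937 CPM (Gpr125-negative), 744 and 209 (TEB-distal) and 474 and 605 (nipple-proximal), and the libraries lay far apart within the Gpr125-negative and the TEB-distal group. Serpinb6a, an inhibitor of cathepsin G and trypsin-like proteases, had 259 and 503, 545 and 306, and 291 and 225 CPM in the same order. Its only separation was that both TEB-distal libraries were above both nipple-proximal ones, by 1.65-fold (unadjusted p = 0.349, adjusted p = 1, edgeR), and 29.3% of its exon bases overlap other genes. Serpinb9, the intracellular inhibitor of granzyme B, had 15.8 and 242, 78.7 and 19.2, and 226 and 98.3 CPM, and its nipple-proximal libraries were both above its TEB-distal libraries (3.32-fold, unadjusted p = 0.207, adjusted p = 1, edgeR).

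**Figure D4:**
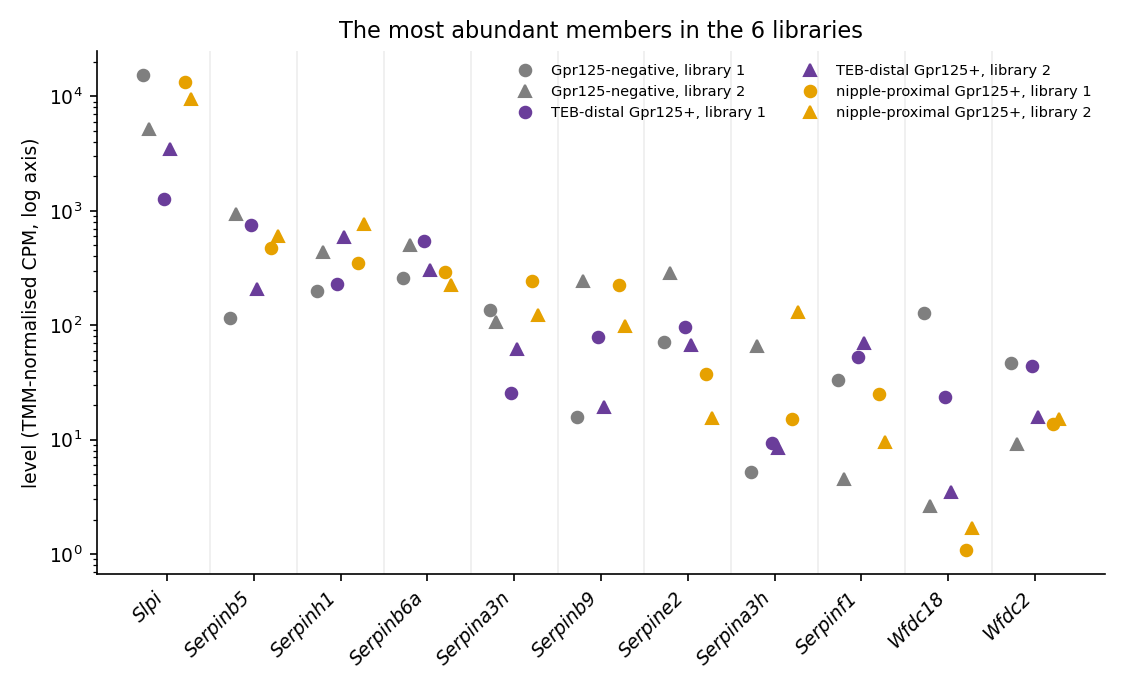
TMM-normalised CPM (log axis) of the most abundant members, with a point for each library (circles for library 1, triangles for library 2; grey Gpr125-negative, purple TEB-distal, yellow nipple-proximal). The purple points are the lowest for Slpi and Serpina3n and the highest for Serpinf1, and the yellow points are the lowest for Serpine2 and Wfdc18.

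Serpinb1a (chromosome 13, 32842092 to 32851185), an intracellular inhibitor of neutrophil elastase, cathepsin G and proteinase 3, had the highest counts among the members that reached 10 counts in a single group. It had 2 and 0 counts (Gpr125-negative), 7 and 2 (TEB-distal) and 1870 and 246 (nipple-proximal). The nipple-proximal libraries were thus far above all others, and they differed from each other by 7.93-fold after normalisation. The ratio of nipple-proximal to Gpr125-negative counts, scaled for depth, was 1930 (95% counting interval 534 to 16000), with an unadjusted p of 0.000552 and an adjusted p of 1 in edgeR. Against TEB-distal cells the mean was 303-fold higher (log2 fold change of TEB-distal minus nipple-proximal -8.22, standard error 1.69, unadjusted p = 0.00142, adjusted p = 1, edgeR). Without nipple-proximal library 1, the higher of the pair, that log2 fold change was -6.06.

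The paralog Serpinb1b did not share this pattern. It had 209 and 204 counts (Gpr125-negative), 503 and 25 (TEB-distal) and 109 and 123 (nipple-proximal), and no group was separate from another. Serpinb1a made up 0.948% and 0% of the counts of the pair in the Gpr125-negative libraries (95% exact binomial intervals 0.115 to 3.38% and 0 to 1.79%). In the TEB-distal libraries it made up 1.37% (0.554 to 2.81%) and 7.41% (0.91 to 24.3%), and in the nipple-proximal libraries 94.5% (93.4 to 95.5%) and 66.7% (61.6 to 71.5%). Only 2.81% of the 50-base stretches of Serpinb1a and 3.09% of those of Serpinb1b occur in another gene, so few reads could be exchanged between them. Serpinb1c had no count.

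**Figure D5:**
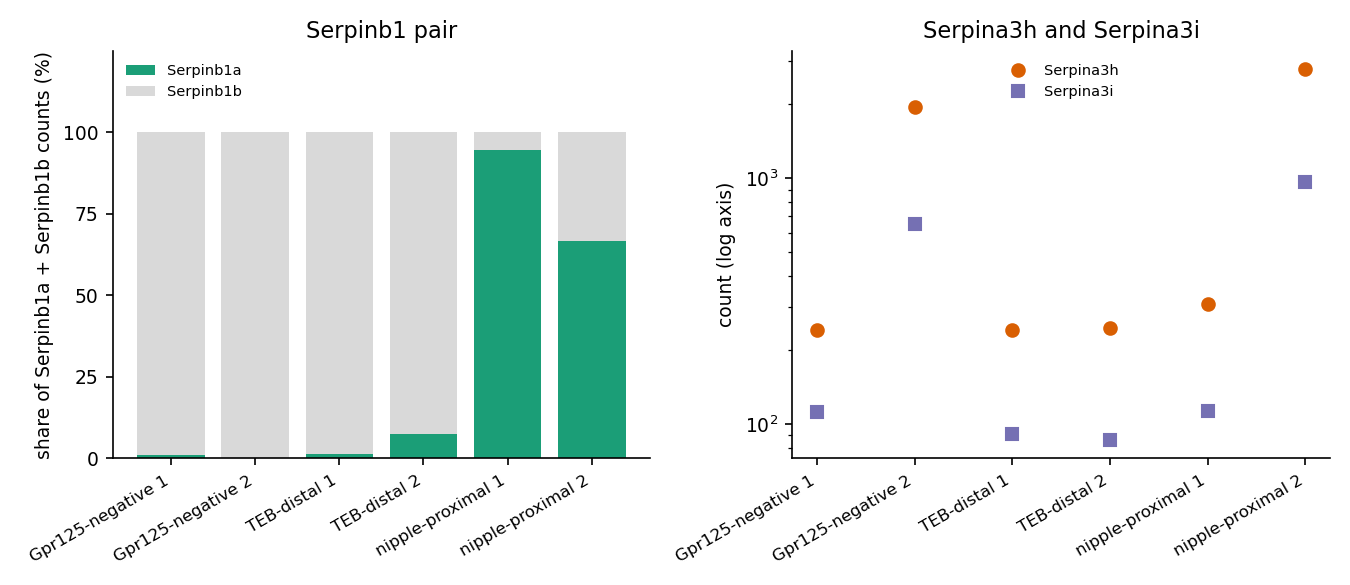
Left, share (%) of the counts of Serpinb1a (green) and Serpinb1b (grey) in each library. Right, counts (log axis) of Serpina3h and Serpina3i in each library. Serpinb1a holds 66.7% or more of the pair in the nipple-proximal libraries and at most 7.41% elsewhere, while Serpina3h stays 2.15 to 3.02 times as high as Serpina3i in all 6.

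Further clade B genes were found in a single Gpr125+ population or in both. Serpinb12 had 0 counts in the Gpr125-negative and TEB-distal libraries and 30 in each nipple-proximal library, at least 17.4-fold above Gpr125-negative and at least 13.2-fold above TEB-distal cells (unadjusted p = 0.0223 and 0.0256, adjusted p = 1 in both, edgeR). Serpinb6e was the mirror case, with 103 and 16 TEB-distal counts and 0 in the other 4 libraries, at least 27.4-fold above Gpr125-negative cells (unadjusted p = 0.0237, adjusted p = 0.803, edgeR) and at least 15.8-fold above nipple-proximal cells (unadjusted p = 0.0301, adjusted p = 1, edgeR). Serpinb9c had 0 and 0, 71 and 44, and 1 and 30 counts. TEB-distal cells were at least 25.7-fold above the Gpr125-negative libraries (unadjusted p = 0.0195, adjusted p = 0.803, edgeR). The nipple-proximal mean was at least 8.80-fold above them (unadjusted p = 0.0329, adjusted p = 1, edgeR). That bound rests on nipple-proximal library 2, because the 1 count of library 1 is below the 3 counts taken as measurable. Of the 50-base stretches of Serpinb9c, 18% occur in another gene, Gm11385. Serpinb8, an inhibitor of furin, had 2 and 0, 16 and 69, and 30 and 17 counts. Its depth-scaled ratios to the Gpr125-negative libraries were 58.7 (TEB-distal, 95% counting interval 15.8 to 493) and 42.9 (nipple-proximal, 11.2 to 365), with unadjusted p of 0.0361 and 0.0442 and adjusted p of 0.803 and 1 in edgeR. These 2 sets of values rest on the same Gpr125-negative libraries.

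Serpinb6b, a paralog of Serpinb6a, had 1.12 and 32.7, 0.546 and 4.19, and 26.8 and 11.1 CPM, with both nipple-proximal libraries above both TEB-distal ones (8.01-fold, unadjusted p = 0.113, adjusted p = 1, edgeR). Serpinb6c and Serpinb9b stayed at or below 2.42 CPM. Serpinb2 (plasminogen activator inhibitor 2) had 0 and 1733 counts (Gpr125-negative), 131 and 197 (TEB-distal) and 26 and 13 (nipple-proximal). Its Gpr125-negative level thus came from library 2 alone. Both TEB-distal libraries were above both nipple-proximal ones (6.25-fold, unadjusted p = 0.294, edgeR). Other clade B genes depended on a single library. Serpinb11 had 495 of its counts in TEB-distal library 1, against at most 17 in any other library. Serpinb9d, Serpinb9f and Serpinb9g had 25, 116 and 169 counts in TEB-distal library 1 and 0 in all other libraries, while Serpinb9e had 36 counts in TEB-distal library 2 and 22 in nipple-proximal library 1. Up to 78.7% of the 50-base stretches of these neighbours (Serpinb9f) occur in other genes, so their summed counts are the safer measure: 0 and 0, 310 and 36, and 22 and 0 in the same order. Promoters of the pair with the most shared sequence are shown because both genes had counts in that library alone. Serpinb9f lies at chr13:33323827-33324126, plus strand, and Serpinb9g at chr13:33484540-33484839, plus strand. When aligned they are identical in 277 of 311 columns, gaps included (89.1%). Neither holds the STAT motif that is capitalised elsewhere.
Serpinb9f: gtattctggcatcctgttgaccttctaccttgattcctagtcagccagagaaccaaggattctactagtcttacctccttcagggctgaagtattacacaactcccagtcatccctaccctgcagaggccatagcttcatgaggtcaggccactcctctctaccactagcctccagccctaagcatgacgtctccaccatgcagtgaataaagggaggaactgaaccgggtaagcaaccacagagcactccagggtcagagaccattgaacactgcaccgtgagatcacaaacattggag
Serpinb9g: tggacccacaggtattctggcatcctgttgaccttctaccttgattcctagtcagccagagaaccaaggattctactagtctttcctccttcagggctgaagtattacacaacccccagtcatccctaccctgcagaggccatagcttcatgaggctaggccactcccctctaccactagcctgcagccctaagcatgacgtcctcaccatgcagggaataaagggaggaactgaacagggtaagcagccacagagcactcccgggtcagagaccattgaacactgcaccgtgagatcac

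Serpine2 (protease nexin 1) is a clade E inhibitor of thrombin, urokinase and plasmin. It had 71.2 and 287 CPM (Gpr125-negative), 97.4 and 67.4 (TEB-distal) and 37.4 and 15.5 (nipple-proximal). Both nipple-proximal libraries were the lowest of the 6. Their mean was 6.77-fold below that of Gpr125-negative cells (log2 fold change -2.76, standard error 0.90, unadjusted p = 0.0164, adjusted p = 1, edgeR), and without Gpr125-negative library 2 the log2 fold change was -1.42. Against TEB-distal cells it was 3.11-fold lower (unadjusted p = 0.0968, adjusted p = 1, edgeR). Serpine3, a less studied clade E gene, had 0 and 0, 45 and 13, and 1 and 4 counts, at least 13.2-fold higher in TEB-distal than in Gpr125-negative cells (unadjusted p = 0.0207, adjusted p = 0.803, edgeR). Of its exon bases, 24.8% overlap Ints6, and the counting ignored strand.

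Both clade F members were highest in the TEB-distal libraries. Serpinf1 (pigment epithelium-derived factor, an antiangiogenic secreted serpin without inhibitory activity) had 33.1 and 4.54 CPM (Gpr125-negative), 52.6 and 70.4 (TEB-distal) and 25.1 and 9.56 (nipple-proximal). Its mean in TEB-distal cells was 3.26-fold above Gpr125-negative cells and 3.55-fold above nipple-proximal cells (unadjusted p = 0.136 and 0.115, adjusted p = 0.949 and 1, edgeR). Its neighbour Serpinf2 (alpha-2-antiplasmin) had 1.40 and 0.102, 2.26 and 5.00, and 0.246 and 0.894 CPM, and again both TEB-distal libraries were above the other 4.

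Serpinh1, which binds procollagen in the endoplasmic reticulum and inhibits no protease, had 200.5 and 436 CPM (Gpr125-negative), 232 and 595 (TEB-distal) and 349 and 774 (nipple-proximal). All groups overlapped. Serping1 (C1 inhibitor) had 20.9 and 17.5, 1.21 and 22.3, and 19.2 and 11.5 CPM, with TEB-distal library 1 apart from the rest. Serpini1 (neuroserpin, an inhibitor of tissue plasminogen activator) had 2.22 and 50.98, 31.2 and 8.885, and 12.7 and 8.10 CPM. Serpinc1 (antithrombin) and Serpind1 (heparin cofactor II) reached at most 7.23 and 1.25 CPM, and 34.4% of the exon bases of Serpinc1 overlap Zbtb37.

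Serpinb1a, Serpina3f and Serpina1b were higher in nipple-proximal library 1 than in library 2, as was the summed level of the endothelial markers (158.5 against 25.85 CPM). Serpinb12, with 30 counts in each, and Serpinb9c, with 1 and 30, were not. The same endothelial sum was higher still in the Gpr125-negative libraries (906.7 and 762.2 CPM), where Serpinb1a had 2 and 0, Serpina3f 19 and 29 and Serpina1b 0 and 2 counts. Leukocyte markers summed to 95.19 and 134.1 CPM (Gpr125-negative), 154.5 and 322 (TEB-distal) and 247 and 149.5 (nipple-proximal). Cd68, which other cells also express, was the largest contributor in each library, with 43.25 to 290 CPM. Of 12 neutrophil and mast cell markers, 8 were under 10 counts in every library, and the list summed to at most 12.05 CPM. Fibroblast markers summed to 28.55 and 148.4, 89.95 and 174.7, and 69.39 and 54.61 CPM. For Serpinf1 and Serpinf2, TEB-distal library 2 was highest in both gene and marker sum. Gpr125-negative library 2, second in the marker sum, had the lowest level of both genes. In that library most of the marker sum was Dcn (122.1 CPM) and Lum (19.51 CPM). Pdgfra, Col3a1 and Dpt each had 0.03387 CPM there, and Col1a1 had 0. Pdgfra, the antigen of the CD140a antibody, had 123 and 1 counts (Gpr125-negative), 173 and 121 (TEB-distal) and 1 and 17 (nipple-proximal). The part of these cell types in the members' differences was not tested.

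The proteases that serpins and WAP-domain proteins inhibit were examined as a list of 37 serine proteases, of which 20 could be tested and 0 were called. Plat (tissue plasminogen activator, a target of Serpini1) had 412 and 385 CPM (Gpr125-negative), 56.2 and 52.6 (TEB-distal) and 97.3 and 48.9 (nipple-proximal), a separation of both Gpr125+ groups from the Gpr125-negative libraries (log2 fold change -2.87 and -2.45, unadjusted p = 0.00378 and 0.00815, edgeR). Endothelial cells are a known source of Plat, and the endothelial marker sum was also highest in the Gpr125-negative libraries. Their part in the Plat difference was not tested. St14 (matriptase) had 167 and 71.3, 92.4 and 92.1, and 133 and 214 CPM, and Prss23 had 12.9 and 274, 171 and 68.9, and 75.9 and 80.0 CPM. Among proteases of neutrophils and mast cells, Elane, Ctsg and Cma1 were at 0 in all 6 libraries, as were Plg, F9, F12 and Klk6 of the list. Prtn3 (proteinase 3) had 0 and 0, 46 and 0, and 6 and 13 counts, Tpsb2 had 27 counts in TEB-distal library 2 alone, Tpsab1 had 1 and 14 in the nipple-proximal libraries alone, and Mcpt4 had 1 count in all. Besides Plat, unadjusted p under 0.05 was found for Htra1, higher in TEB-distal than in Gpr125-negative cells, for Klk10, lower in nipple-proximal than in Gpr125-negative cells, and for Masp1, lower in TEB-distal than in nipple-proximal cells. These genes, like the others of the lists named for an unadjusted p, were picked after their values were seen. Over this and the following lists of related genes together, edgeR called 0 genes in each comparison, and DESeq2 on the 4 compared libraries called 5, 4 and 5. Of all genes it gave an adjusted p, DESeq2 called 4.33%, 2% and 2.26% in these comparisons. The median log2 fold change of the list was -0.25, -0.23 and 0.84, beside 0.03, -0.00 and 0.06 for all genes.

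Of cysteine proteases, cathepsins and caspases of the kinds that some clade A and B serpins inhibit, all 10 listed were tested and 0 were called. Ctsl had 490.2 and 1366, 1282 and 1003, and 1067 and 1808 CPM, Ctsb had 535 to 1076 CPM and Ctsz 133 to 389 CPM over the 6 libraries, with medians of the list of 0.40, 0.09 and -0.04. Unadjusted p under 0.05 was found for 1 gene in each comparison that involved TEB-distal cells, Ctsh lower against Gpr125-negative and Ctsk higher against nipple-proximal cells. Of 14 receptors and cofactors, 13 were tested, 0 were called and none had an unadjusted p under 0.05 in edgeR, with medians of 0.63, 0.39 and 0.28. Plaur, the urokinase receptor, had 759 and 214, 331 and 1171, and 531 and 366 CPM, Sdc4 between 223 and 1359 CPM, and Rpsa between 148 and 992 CPM.

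Elastic fibre genes were listed because elastin is a main substrate of the proteases that Slpi restrains. All 17 were tested and 0 were called, with unadjusted p under 0.05 for 2 higher and 1 lower gene in TEB-distal and 1 higher gene in nipple-proximal cells, both against Gpr125-negative cells. Their medians were 0.16, -0.40 and 0.50. Ltbp2 had 13.0 and 60.1, 2.92 and 72.7, and 146.5 and 105.5 CPM, with both nipple-proximal libraries above the other 4, while Ltbp4 and Fbln2 were spread over 19.3 to 103 and 6.97 to 124 CPM.

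The 23 partners of Serpinh1 in procollagen handling were all tested and 0 were called, with medians of 0.40, 0.52 and -0.21. In each Gpr125+ group, 8 of these genes had both libraries above both Gpr125-negative libraries (beside 14% of all genes in the TEB-distal and 19.9% in the other comparison), and none had both below (beside 10% and 10.8%). Between the Gpr125+ groups, 4 were higher and 5 lower in TEB-distal cells without overlap (beside 15.2% and 18.3%). Unadjusted p under 0.05 was found for 4 higher genes in TEB-distal (Col1a2, Col4a1, Col4a2 and Col6a1) and 1 in nipple-proximal cells (Col6a1) against Gpr125-negative cells, and for 1 (Col1a2) higher in TEB-distal than in nipple-proximal cells. Col4a1, a basement membrane collagen, had 223 and 156 CPM (Gpr125-negative), 825 and 1892 (TEB-distal) and 562 and 417 (nipple-proximal) (log2 fold change 2.84 for TEB-distal minus Gpr125-negative, unadjusted p = 0.00786, edgeR). P4hb and P4ha1, which hydroxylate procollagen, had 363 to 3204 and 162 to 883 CPM. Of 18 other antiproteases, 13 were tested and 0 were called, with medians of 0.46, -0.41 and 0.26, and with unadjusted p under 0.05 for 2 higher and 1 lower, 1 higher, and 1 higher gene in the 3 comparisons. Spint2 had 256 to 838 CPM, Cstb 289 to 702 CPM and Cst3 115 to 350 CPM.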

How the data were processed

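RNA of sorted cells was amplified without molecular identifiers and sequenced, and the authors aligned reads with STAR (version 2.7.3 in the submitters' processing notes) to mm10 and counted them per gene symbol with HTSeq, without strand. The deposited values are raw counts for each library, with no normalisation, for 55291 symbols. Groups came from the sample records. Counts were fitted with edgeR 4.0.16 in R 4.3.3 (TMM, filterByExpr, robust quasi-likelihood test, all 6 libraries, 3 comparisons), with a call at a Benjamini-Hochberg adjusted p under 0.1 and at least 2-fold change. CPM are TMM-normalised. The steps were first tested on simulated data. These were given a smaller spread between libraries than the real data have (biological coefficient of variation 0.967). The simulation therefore does not show which changes could be found here. DESeq2 1.42.0, other scalings and filters, a replicate block and leaving out each library were alternatives.

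The members and lists were chosen with earlier results of these data known. Values in every library are given for the 12 members of highest mean CPM, those with an unadjusted p under 0.05 or a call, Slpi and the Serpinb1 genes, and, in each comparison, the 5 with the largest fold change among members whose groups do not overlap. For each list of related genes, the 3 of highest mean CPM and any called in the main edgeR fit are named. Listed genes that only DESeq2 called are not named as such. Exon length, overlap and shared 50-base stretches came from GENCODE M21 (GRCm38), which matched 96.4% of symbols. Total counts of 20134890 to 37296640 set 3 counts at 0.0804 to 0.149 CPM. Bounds against a group at 0 take 3 counts in each library. Where a group held 1 to 3 counts in all, a ratio with an exact conditional 95% interval is given. A member gene is left out of the text and of the plots that name genes, and is not reported here.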

Additional observations from a re-analysis of the deposited data

Results flagged for a closer look

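Serpina3f lay on opposite sides of the Gpr125-negative libraries (19 and 29 counts) in the Gpr125+ populations, with 6 and 11 (TEB-distal) and 1001 and 219 (nipple-proximal). The lower TEB-distal level did not pass the test (log2 fold change -1.17, unadjusted p = 0.353, adjusted p = 1, edgeR). The difference between the populations is the TEB-distal against nipple-proximal comparison itself, with a log2 fold change of -6.59 (unadjusted p = 0.00214, adjusted p = 1, edgeR; adjusted p = 5.57e-08, DESeq2 on the 4 compared libraries).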

How the results depend on the processing

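In the order TEB-distal against Gpr125-negative, nipple-proximal against Gpr125-negative, and TEB-distal against nipple-proximal, edgeR called 0 members in each. DESeq2 called 4, 4 and 3 on all 6 libraries (beside 3.22%, 1.1% and 0.454% of all genes fitted, those given no adjusted p included) and 3, 5 and 9 on the 4 compared ones (2.51%, 1.16% and 1.3%), and edgeR with every gene of 1 count or more called 2 in each comparison that involves nipple-proximal cells (0.198% and 0.133%). Without 1 library at a time, 0 to 1, 0 to 3 and 0 to 1 were called. Members with an unadjusted p under 0.05 were at first 4, 8 and 6. In the comparisons of TEB-distal cells they numbered 9 and 12 with DESeq2 on 6 libraries (52 tested, beside 7.83% and 3.45% of all genes). With DESeq2 on 4 libraries they numbered 7 and 19 (48 and 51 tested, beside 6.89% and 6.07%). With edgeR and every gene of 1 count or more they numbered 12 and 15 (52 tested, beside 6.74% and 2.76%). They numbered 14 in TEB-distal against nipple-proximal cells with edgeR on 4 libraries, and 2 to 11, 4 to 9 and 2 to 16 without 1 library, where 4.37% to 16.6%, 1.06% to 14.5% and 0.749% to 4.87% of all genes had such a p. Each of the highest shares, and the 11 and the 16 members, came without Gpr125-negative library 1. The 14 members with edgeR on 4 libraries were of 37 tested and stood beside 5.54% of all genes. The cause of these shifts was not tested.

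With the replicate block, 4 of 40 members had an unadjusted p under 0.05 (edgeR) in nipple-proximal against Gpr125-negative cells, beside 2.47% of all genes. In that fit 0 were called. Same-numbered samples share only a number (correlation of deviations -0.0347, 0.194 and -0.00495).

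The log2 fold change of Slpi between nipple-proximal and Gpr125-negative cells became -0.0019 with DESeq2 on 6 libraries, -0.16 on library totals, -0.44 without Gpr125-negative library 2 and -0.14 without nipple-proximal library 1. That of Serpinb1b, at first -0.03, became 0.31 and 0.025 in the last 2 fits. Over all fits without 1 library, Serpinb1b ranged from -0.45 to 0.31 there, from -2.76 (without TEB-distal library 1) to 1.78 in TEB-distal against Gpr125-negative cells, and from -2.64 (without the same library) to 1.80 in TEB-distal against nipple-proximal cells. Without Gpr125-negative library 1, edgeR called some genes of the related lists in the comparisons with Gpr125-negative cells. That fit left the Gpr125-negative group with 1 library, so these calls are not counted. Counts of members whose groups do not overlap, recomputed after seeing the data, were 7 and 4, 9 and 6, and 12 and 12 under both other scalings. The shares of all genes were not recomputed under these scalings, so these counts cannot be set against a background.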
